A study of Mus musculus with 2 samples.

Results

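Epithelial genes of the ovary and its neighbouring ducts were followed across 37 genes that encode keratins, the proteins of tight junctions and desmosomes, adhesion molecules, transcription and splicing regulators of epithelia, membrane proteases with their inhibitors, and products of oviduct secretory cells and of the ovarian surface. The genes were chosen by symbol, with earlier results of these data known. Every probe set whose annotation named exactly 1 gene from the list was taken. This gave 68 probe sets for 37 of 18193 genes on the array. Ovaries came from wild type CD-1 mice aged 24 to 28 days. All animals received 5 IU of PMSG, a gonadotropin that grows follicles, and 48 h later 5 IU of hCG, which starts ovulation. At 2 h after hCG one group was given oil vehicle and the other ulipristal acetate (CDB in some labels), a ligand that modulates the progesterone receptor, and ovaries were taken at 11 h, counted from an injection that the labels do not name. Each group is 1 Affymetrix mouse expression array, and the number of mice behind each RNA sample is not stated.

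Because there is 1 array per treatment, no spread between samples can be computed, and neither a p-value nor a standard deviation is given. Each difference below is between these 2 arrays. Signals are MAS5 intensities in arbitrary units, and each ratio is on the log2 scale, ulipristal relative to vehicle. Signals under 7.17 were set to that value, the floor, and a fold that crosses it is given as at least that large. The brightest probe set stood for each gene, which counted as measured where the mean of its log2 signals reached that of a signal of 30.8, the filter, which held for 29 of the 37 genes. In whole-organ RNA, fewer cells of a type and less RNA per cell cannot be told apart. The ovarian identity of both samples was borne out by granulosa markers, with Inha, the inhibin alpha subunit, at 6933 with vehicle and 8212 with ulipristal, and Cyp11a1, which makes pregnenolone, at 10451 and 11177.

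Epithelial cells are held in sheets by cadherins and desmosomes, sealed by tight junctions whose strands are built from claudins and occludin, and stiffened by paired keratins. Grainyhead-like and epithelial ETS factors maintain this programme, and SNAI and ZEB factors repress it. In the female tract such cells form the ciliated and secretory lining of the oviduct and, in a less differentiated form shared with the mesothelium, the surface of the ovary. Granulosa cells also carry some junction proteins, so several of the genes are not restricted to these linings.

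Most of the measured genes gave a higher signal after ulipristal. Of 29 measured members, 24 had a ratio above 0, against 60.0% of all 11364 measured genes. At 2-fold or more, 8 members were higher, where 3.34% of measured genes were, and 1 was lower, where 1.56% were. The 8 higher genes were Plet1, Cldn10, Elf3, Ehf, Cldn7, Epcam, Spint1 and Wfdc2, and the lower gene was Cldn1. The median ratio of the measured members was 0.68, beside 0.09 for all measured genes. Over all 37 members, dim ones included, the median was 0.67, beside 0.02 for all 18193 genes. Counted whatever their signal, 11 of 37 were at least 2-fold higher, beside 5.63% of all genes.

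**Figure D1:**
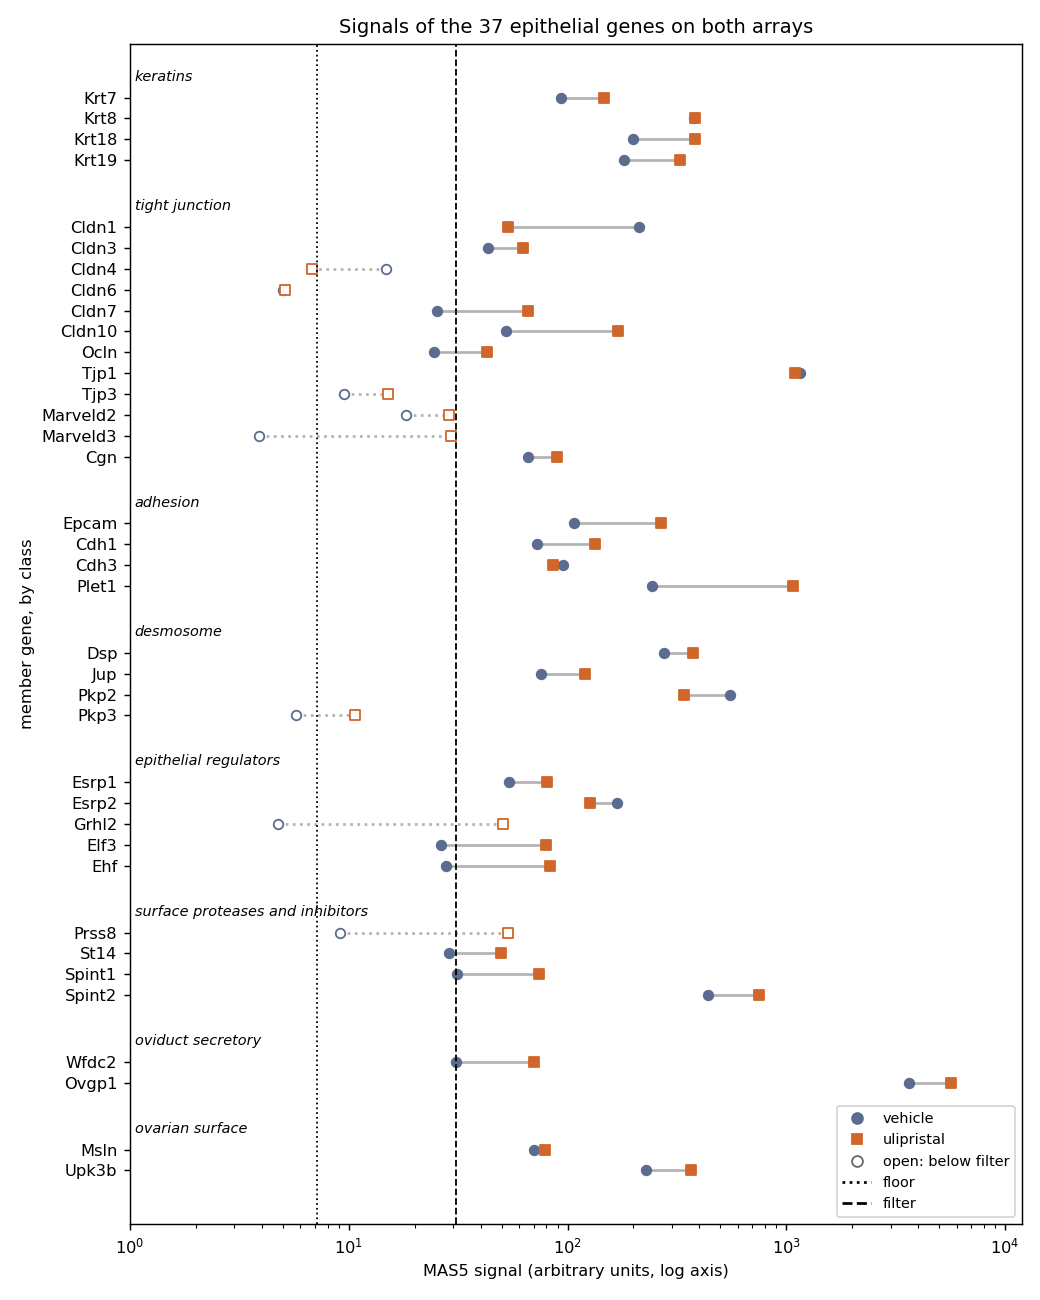
MAS5 signals (log axis, arbitrary units) of the brightest probe set of each of the 37 genes, grouped by class, on the vehicle array (circles) and the ulipristal array (squares). Open symbols are the 8 genes below the filter, the dotted line is the floor at 7.17 and the dashed line the filter at 30.8. For most genes the square lies to the right of the circle, and Cldn1 shows the widest step the other way.

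Several of these genes were dim, and dim genes tended to be higher on the ulipristal array across the whole array. Among 4306 measured genes with a mean signal below 154, the 75th percentile of probe sets, 7.48% were at least 2-fold higher and the median ratio was 0.24. Above 0 by any amount were 70.8% of the genes in that range and 15 of its 18 members. These 18 had 6 higher genes, 1 lower gene (beside 1.76% of that range) and a median of 0.73. Among 7058 brighter genes 0.822% were at least 2-fold higher, and 2 of 11 brighter members were, Plet1 and Epcam. The members Cldn7, Ocln, Elf3, Ehf and St14 (5 of 29) had a vehicle signal under the filter and passed it only through the ulipristal array, so their ratios had to be above 0. Without such genes 5 of 24 members were at least 2-fold higher, beside 2.12% of 11040 genes treated alike, and 19 of 24 were above 0, beside 58.8%. With 50 added to every signal, which damps dim genes, 3 of 29 members were at least 2-fold higher, beside 0.475% of measured genes. These members were Cldn10, Epcam and Plet1. At 1.5-fold in the main setting 18 of 29 were higher, beside 12.3% of measured genes, and 2 were lower, beside 4.58%. At 3-fold 3 were higher, beside 0.528%.

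**Figure D2:**
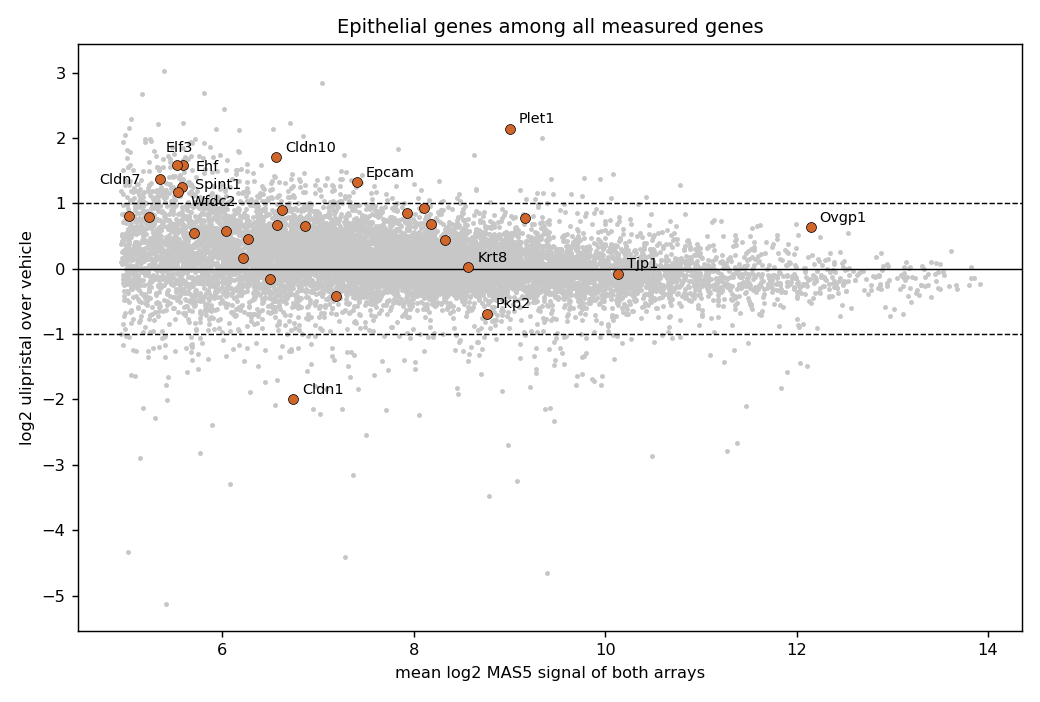
Log2 ratio of ulipristal over vehicle against mean log2 MAS5 signal for the 11364 measured genes (grey) and the 29 measured epithelial genes (orange, some named). Dashed lines mark 2-fold. The grey cloud is wider and shifted upward on the left, and Plet1 lies above all other genes in the brighter range.

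Among the adhesion molecules, Plet1 and Epcam stood out. Plet1, a surface glycoprotein of epithelial progenitors in the mouse, read 244 with vehicle and 1076 with ulipristal, 4.41-fold higher. That ratio of 2.14 was the highest among the 7058 measured genes at or above the 75th percentile of signal. Another measured probe set of Plet1 read 35.8 and 362, 10.1-fold higher. The last one lay under the filter and ran the other way, with 27.4 and 12.6. Epcam, a homophilic adhesion molecule found on nearly all simple epithelia, read 107 and 268, a ratio of 1.32. Its dimmer probe set gave 22.8 and 90.5, a ratio of 1.99 in the same direction. The classical cadherins were less different. Cdh1, E-cadherin, the main adhesion receptor of epithelial adherens junctions, read 72.2 and 134, a ratio of 0.89. Cdh3, P-cadherin, read 95.5 and 85.6, a ratio of -0.16, so the class held ratios on both sides of 0.

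Tight junction genes held both the only measured member that was lower by 2-fold and some of the largest higher values. Claudins are the strand-forming proteins whose mix sets which ions pass between cells. Cldn10, which forms ion-selective pores, read 52.4 with vehicle and 171 with ulipristal, 3.25-fold higher, on its 1 probe set, a type that can bind several transcripts. Cldn7 read 25.3 and 65.7, 2.59-fold higher. Cldn1, a sealing claudin best known for the barrier of the skin, read 213 and 53.4, 3.98-fold lower. Its other 3 probe sets lay under the filter, 1 of them at 15.9 and 10.3 and the others below the floor on both arrays, so the Cldn1 value rests on 1 probe set. Cldn3 was higher on all 4 of its probe sets by different amounts. The brightest read 43.1 and 62.7, a ratio of 0.54, and the second 17.7 and 66.0, a ratio of 1.89. Of the others, 1 read below the floor at 7.06 with vehicle and 70.1 with ulipristal, at least 9.78-fold higher, and the last read 1.74 and 17.6. The call for Cldn3 therefore depends on which probe set stands for it, and by the median of the measured probe sets its ratio was 1.22.

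The remaining tight junction genes differed by less than 2-fold or were too dim to measure. Ocln, occludin, a tetraspan protein of the strands, read 24.5 and 42.9 on the brighter probe set and 25.1 and 18.1 on the dimmer, in opposite directions. Cgn, the cytoplasmic plaque protein cingulin, read 65.7 and 89.9 on the brighter and 26.8 and 14.7 on the dimmer, also in opposite directions. Tjp1, the scaffold ZO-1, which many cell types besides epithelia contain, read 1156 and 1094. Of the dim genes, Marveld3, a relative of occludin, read 3.90 and 29.4, at least 4.09-fold higher. Cldn4 read 14.8 and 6.80, at least 2.07-fold lower, and Cldn6 was below the floor on both arrays. Marveld2, tricellulin, which seals the corners where 3 cells meet, read 18.3 and 28.7, and Tjp3, a scaffold, 9.48 and 15.0. Among the 7 measured genes of the class, 2 were at least 2-fold higher, beside 3.34% of all measured genes, and 1 was lower, beside 1.56%. Above 0 were 5 of the 7, beside 60.0%. Of these, Cldn7 and Ocln passed the filter only through the ulipristal array, so their ratios had to be above 0.

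Desmosome genes showed no 2-fold difference, and their direction was mixed. Dsp, desmoplakin, which ties desmosomes to keratin filaments, read 276 and 374 on its brightest probe set, and a second measured probe set gave 159 and 226. Jup, plakoglobin, read 75.6 and 120, a ratio of 0.67. Pkp2, plakophilin 2, was lower on all 3 measured probe sets, with signals of 551 and 342, 379 and 278, and 59.5 and 30.2, and ratios from -0.98 to -0.45. Pkp3 read 5.71 and 10.6, both near the floor. Pkp2 and Dsp, partners in the same plaque, thus differed in sign on every measured probe set.

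The 4 simple epithelial keratins, which line ducts and also occur in the ovarian surface and in some granulosa cells, were all above 0 and all under 2-fold. Krt18 read 200 with vehicle and 381 with ulipristal, a ratio of 0.93. Krt19 read 182 and 326, a ratio of 0.84, and Krt7 read 92.8 and 147, a ratio of 0.66. Krt8, the filament partner of Krt18, had nearly equal signals of 377 and 383 on its brightest probe set. Its other probe sets, of the kind that can bind several transcripts, gave ratios of 0.40 and 0.42. The keratin median was 0.75.

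Regulators of epithelial identity included some of the larger ratios, at low signals. Elf3 and Ehf, ETS transcription factors of epithelia, were nearly alike. Elf3 read 26.5 and 79.6, a ratio of 1.59, and Ehf read 27.8 and 83.3, a ratio of 1.58. The other 3 Ehf probe sets lay under the filter, with ratios of 0.33 and -0.29 and 1 pair of signals below the floor. Grhl2, a Grainyhead-like factor that activates junction genes, read 4.77 with vehicle and 50.4 with ulipristal, at least 7.03-fold higher. It did not pass the filter, and its other 3 probe sets read between 0.549 and 10.8 on both arrays, 1 of them 10.8 with vehicle and 5.87 with ulipristal. The splicing regulators Esrp1 and Esrp2, which direct epithelial exon choice, went different ways. Esrp1 read 54.0 and 80.4, a ratio of 0.57, and Esrp2 read 168 and 126, a ratio of -0.41.

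**Figure D3:**
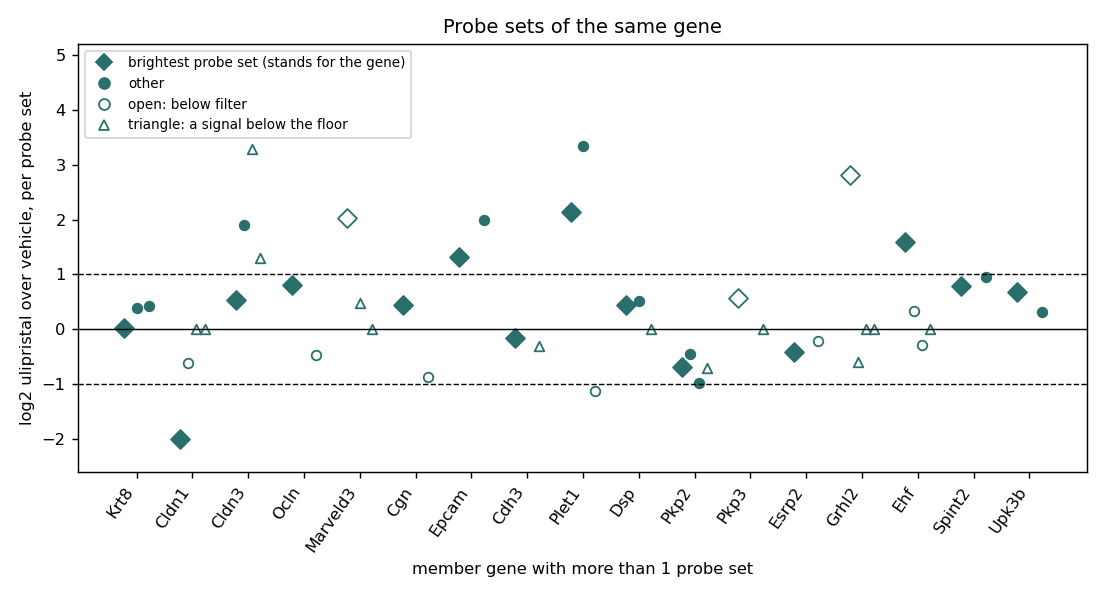
Log2 ratio of ulipristal over vehicle for each probe set of the 17 genes with more than 1, with the probe set that stands for the gene as a diamond, those below the filter open, and those other than diamonds with a signal below the floor as triangles. Dashed lines mark 2-fold. Filled symbols of 1 gene share a sign in all 8 genes that have several, and open ones often do not. In Cldn3, Epcam and Pkp2 the filter fixed the sign of a filled symbol other than the diamond.

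Across probe sets, 39 of the 68 were measured, and of these 32 were above 0 and 7 below. At 2-fold or more 11 were higher and 1 was lower. The shares over all 22519 measured probe sets were not computed, so these counts have no background beside them. Among the higher ones, those of Cldn7, Elf3 and Ehf and the dimmer measured ones of Cldn3 and Epcam passed the filter only through the ulipristal array. In all 8 genes with several measured probe sets these shared a direction. For 3 of these genes the filter fixed the sign of a dimmer probe set. Those of Cldn3 (17.7 and 66.0) and Epcam (22.8 and 90.5) passed it only through the ulipristal array. That of Pkp2 (59.5 and 30.2) passed it only through the vehicle array.

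The genes of the membrane protease cascade of epithelia all had ratios above 0. St14, matriptase, and Prss8, prostasin, are serine proteases that activate each other at the cell surface, and Spint1 and Spint2 are their Kunitz-type inhibitors. Spint1 read 31.1 with vehicle and 73.8 with ulipristal, 2.37-fold higher. Spint2 read 436 and 749 on the brighter and 250 and 482 on the dimmer probe set, ratios of 0.78 and 0.94. St14 read 28.6 and 49.4, a ratio of 0.79. Prss8 read 9.14 and 53.5, 5.85-fold higher, yet its mean log2 signal lay under the filter. Prss8 thus had the highest ratio of the class and was its only gene under the filter.

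Products of oviduct secretory cells were also higher. Wfdc2, a secreted protein with protease-inhibitor-like domains, read 30.9 and 70.0, 2.26-fold higher. Ovgp1, oviductin, the glycoprotein that coats the egg in the oviduct, read 3641 and 5642, 1.55-fold higher, on its 1 probe set, which can bind several transcripts. The genes of the ovarian surface and mesothelium were above 0 and under 2-fold. Upk3b, a uroplakin of mesothelium, read 229 and 366 on the brighter and 151 and 189 on the dimmer probe set, ratios of 0.68 and 0.32. Msln, mesothelin, read 70.1 and 78.7, a ratio of 0.17.

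A second list of 40 epithelial genes, not in the set above and also chosen with earlier results known, was read in the same way. Of its 22 measured genes, 15 were above 0, beside 60.0% of all measured genes, and the median ratio was 0.32. At 2-fold or more 3 were higher, beside 3.34%, and 1 was lower, beside 1.56%. Ap1m2 and Crb3 passed the filter only through the ulipristal array. Without them 2 of 20 were at least 2-fold higher, beside 2.12% of genes treated alike, and 13 were above 0, beside 58.8%. Ap1m2, an adaptor subunit of polarised sorting, read 21.4 and 60.5, 2.82-fold higher. Prom1, prominin 1, an apical membrane protein, read 76.6 and 172, 2.24-fold higher, and Cd24a, a surface glycoprotein, 473 and 951, 2.01-fold higher. Sdc4, syndecan 4, a heparan sulfate proteoglycan, read 1769 and 678, 2.61-fold lower. The catenins of the list are named here after their values were seen. Ctnnb1 and Ctnna1, which link cadherins to the cell interior, had ratios of -0.04 and -0.14. Ctnnd1 read 308 and 413, a ratio of 0.43, so the catenins lay on both sides of 0.

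Markers of cells that could accompany an ovary differed to different extents. For comparison with each list below, 60.0% of all measured genes were above 0 and 3.34% were at least 2-fold higher. Without genes that passed the filter only through the ulipristal array, these shares were 58.8% and 2.12%. Among measured genes with a mean signal below 154, the range of most measured motile cilium genes, they were 70.8% and 7.48%. Motile cilium genes, which mark the ciliated cells beside the secretory cells of the oviduct, were above 0 in 8 of 9 measured cases and at least 2-fold higher in 6, with a median of 1.16. Foxj1 and Ccdc39 passed the filter only through the ulipristal array, and without them 4 of 7 were at least 2-fold higher, 6 were above 0 and the median was 1.10. Their summed signal over 12 genes was 657 with vehicle and 1253 with ulipristal, 1.91-fold higher. Ccdc40 and Spag6l were below the floor on the vehicle array and none of the list was on the ulipristal array. Dynlrb2, a dynein light chain, read 56.9 and 233 and Foxj1, the master regulator of motile cilia, 19.1 and 75.1. Ccdc39 read 27.4 and 72.9 and Tmem212 57.5 and 152. The part of oviduct tissue in the epithelial values was not tested.

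Mesothelium and ovarian surface markers had a smaller shift, with 7 of 9 above 0, a median of 0.17 and summed signals of 1461 and 1817. None of these was below the floor. Msln and Upk3b are in both this list and the epithelial set, and the list median is the ratio of Msln. Lrrn4, a mesothelial surface protein, read 20.9 and 50.7, Aldh1a2, a retinoic acid enzyme, 230 and 416, and Nkain4 32.1 and 43.1. Gpm6a (202 and 154) and Upk1b (94.0 and 77.3), named here after their values were seen, had ratios below 0. Adipocyte markers, which would come from the fat around the ovary, were above 0 in all 4 measured cases, with a median of 0.91 and summed signals of 1936 and 2782 over 5 genes, Lep being below the floor on both arrays. Adipoq, adiponectin, read 195 and 370, Cidec, a lipid droplet protein, 28.7 and 67.9, Retn, resistin, 104 and 194, and Fabp4, a fatty acid carrier, 1602 and 2148.

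Granulosa markers were above 0 in 8 of 10 cases and at least 2-fold higher in 3, beside 3.34% of all measured genes. Their median was 0.35 and their summed signals were 30318 and 34350. Inhbb, an inhibin and activin subunit, read 656 and 1781, Fshr, the receptor of FSH, 51.1 and 116, Esr2, an estrogen receptor, 43.1 and 98.1, and Foxl2, a granulosa transcription factor, 940 and 1597. Amh (48.7 and 30.1) and Gja1 (7682 and 7558), named here after their values were seen, had ratios below 0. Endothelial markers had a median of 0.12 over 8 genes and summed signals of 1914 and 2235. Tie1 read 24.8 and 76.8, Pecam1 85.2 and 171, Emcn 274 and 436, and the vascular cadherin Cdh5 340 and 288. None of the granulosa, endothelial or mesenchymal markers was below the floor. Without genes that passed the filter only through the ulipristal array (Lrrn4, Cidec, Tie1 and Snai1 in the remaining lists), the medians were 0.65 for the epithelial set, 0.90 over 3 adipocyte genes, 0.35 for granulosa, 0.15 for mesothelium, 0.07 for endothelium and 0.07 for mesenchymal genes. Counted in the same way, 5 of 24 epithelial members, 3 of 10 granulosa genes and 1 of 7 endothelial genes were at least 2-fold higher. The share of all genes treated alike was 2.12%. In the mesothelium, adipocyte and mesenchymal lists the count was 0. Whether tissue content or transcription per cell differed was not tested.

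**Figure D4:**
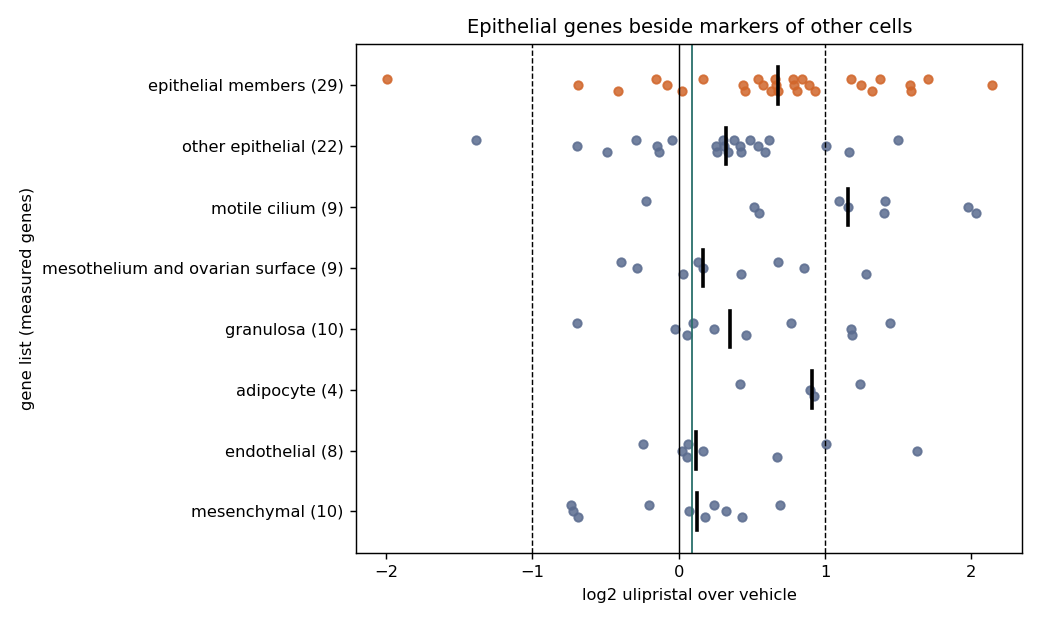
Log2 ratio of ulipristal over vehicle for each measured gene of the epithelial set (orange) and of 7 comparison lists (blue), with the number of measured genes in brackets. Black bars are list medians, the green line is the median of all measured genes at 0.09 and dashed lines mark 2-fold. The bars of the epithelial, motile cilium and adipocyte rows lie furthest to the right. Msln and Upk3b are drawn in both the epithelial and the mesothelium row.

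Mesenchymal genes, among them the repressors of epithelial junction genes, had no 2-fold difference in 10 measured cases, with 6 above 0, a median of 0.13 and summed signals of 19457 and 19231. Zeb2 read 645 and 392, a ratio of -0.72, and Twist1 157 and 94.4, a ratio of -0.74. Snai1 read 29.7 and 47.9, a ratio of 0.69, and Cdh2, N-cadherin, the main cadherin of granulosa cells, 549 and 341, a ratio of -0.69. Snai2 (896 and 1121) and Zeb1 (797 and 943), named here after their values were seen, were slightly higher. The repressor family thus had members on both sides of 0.

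The sequences before the gene starts were examined because SNAI and ZEB factors are known to repress junction genes through an E-box. The RefSeq promoter table (GRCm38.p6) held 24 of the 37 genes, with 30 starts, and the 250 bases before each start were searched on both strands for 9 motifs. Of these the E-box CAGGTG or, read from the other strand, CACCTG had the widest gap to the background in percentage points. The motifs were chosen after the signals had been seen. It occurred before 14 of 24 epithelial genes, or 58.3%, and before 19.4% of 27025 genes in the table. It was also found before 12 of 22 genes of the second epithelial list, or 54.5%. Counted per promoter, it was in 16 of the 30 epithelial windows, or 53.3%, and in 17.2% of all 32851. Epithelial promoters were richer in G and C, with a median of 60.6% against 52.4%. Of all promoters between 55.3% and 64.7% GC, the middle range of the epithelial ones, 21.2% held the motif, and the part of base composition in the difference was not tested further. The motif was found for 5 of 7 genes that were at least 2-fold higher, 6 of 12 measured genes under 2-fold, 3 of 4 dim genes and not for Cldn1. The windows of the genes below are shown because they are the higher members with a match before their first listed start (Epcam, Plet1, Elf3 and Wfdc2), the member with the most matches (Spint2) and the lower member (Cldn1). Capitals mark the E-box and each line runs 5′ to 3′ on the strand of the gene.
Epcam, chr17:87635729-87635978, plus strand: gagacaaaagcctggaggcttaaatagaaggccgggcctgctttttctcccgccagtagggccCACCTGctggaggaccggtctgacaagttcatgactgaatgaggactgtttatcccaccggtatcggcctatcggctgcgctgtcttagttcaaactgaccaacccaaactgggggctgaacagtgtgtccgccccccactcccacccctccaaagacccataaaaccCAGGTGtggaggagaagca
Spint2, chr7:29281978-29282227, minus strand: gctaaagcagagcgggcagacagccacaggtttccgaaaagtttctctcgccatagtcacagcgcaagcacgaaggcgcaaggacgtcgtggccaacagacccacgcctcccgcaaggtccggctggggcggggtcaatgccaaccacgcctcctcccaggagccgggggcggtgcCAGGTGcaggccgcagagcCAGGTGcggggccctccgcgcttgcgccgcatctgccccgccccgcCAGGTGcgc
Plet1, chr9:50494275-50494524, plus strand: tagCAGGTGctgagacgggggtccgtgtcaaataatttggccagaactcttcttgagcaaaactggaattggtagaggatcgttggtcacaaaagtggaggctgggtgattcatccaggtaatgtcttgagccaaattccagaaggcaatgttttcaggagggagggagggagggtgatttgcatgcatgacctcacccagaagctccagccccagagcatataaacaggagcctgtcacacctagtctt
Elf3, chr1:135258473-135258722, minus strand: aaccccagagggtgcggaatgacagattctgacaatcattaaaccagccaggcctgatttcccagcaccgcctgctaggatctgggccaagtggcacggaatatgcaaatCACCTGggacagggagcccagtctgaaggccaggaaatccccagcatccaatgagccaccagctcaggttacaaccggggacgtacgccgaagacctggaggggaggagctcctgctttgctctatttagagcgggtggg
Wfdc2, chr2:164562465-164562714, plus strand: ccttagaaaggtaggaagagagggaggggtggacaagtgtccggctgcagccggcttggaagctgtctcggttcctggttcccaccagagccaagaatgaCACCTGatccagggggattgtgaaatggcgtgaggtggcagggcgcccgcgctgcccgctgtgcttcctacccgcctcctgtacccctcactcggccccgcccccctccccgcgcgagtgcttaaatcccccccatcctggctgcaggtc
Cldn1, chr16:26371840-26372089, minus strand: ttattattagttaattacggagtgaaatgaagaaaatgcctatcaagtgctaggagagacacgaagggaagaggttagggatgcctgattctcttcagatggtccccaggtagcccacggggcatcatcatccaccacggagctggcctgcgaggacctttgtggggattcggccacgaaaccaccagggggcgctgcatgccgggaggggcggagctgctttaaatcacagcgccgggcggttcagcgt

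In the Epcam window the E-boxes start at positions -187 and -19 relative to the gene start, in Plet1 at -247, in Elf3 at -140 and in Wfdc2 at -150. Spint2 has 3, at -74, -55 and -9. The other matched genes were Krt7, Krt8, Krt18, Cldn4, Cldn6, Cldn7, Ocln, Tjp3 and Ovgp1, so the motif was present in keratin, claudin and secretory classes. No match was found before the desmosome genes Dsp and Jup, nor before Cldn1, Cldn3, Cldn10, Tjp1, Cgn, Marveld2, Spint1 and Upk3b. The related E-box CAGCTG occurred before 12.5% of the epithelial genes and 14.7% of all genes.

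**Figure D5:**
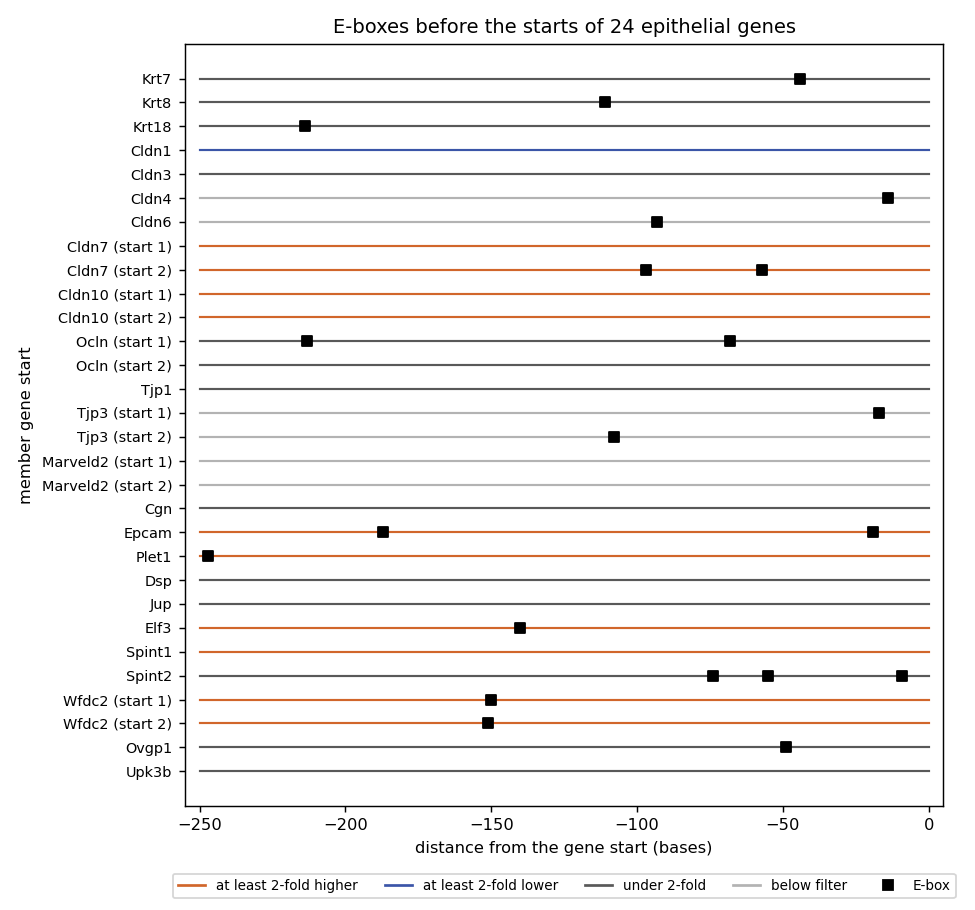
Positions of the E-box CAGGTG or its reverse complement (squares, first base) in the 250 bases before each of 30 starts of 24 epithelial genes, with the line coloured by the difference between the arrays. Genes with more than 1 start have a line for each. Squares occur on lines of the higher, the under 2-fold and the dim genes, at no common distance.

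The other motifs are given with their share of all genes in the table. The Grainyhead-like core ACCGGT was found before Epcam (at -174 and -131) and Spint1 (at -77), or 8.33% of genes against 2.13% of all, and the relaxed form AACNNGTT before Cgn (4.17% against 4.11%). The ETS core AGGAAG occurred before 29.2% against 32.3%. The palindromic progesterone response element was matched before Epcam only (at -69), in 4.17% against 0.440%, and a single arm of it, AGAACA, in 8.33% against 18.2%. The GC box GGGCGG was found in 70.8% against 35.4%, a motif made of G and C that 52.0% of promoters in the same GC range hold, and the TATA box TATAAA in 8.33% against 14.3%. A match of letters is not a bound site.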

How the data were processed

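Total RNA of whole ovaries, extracted with Trizol and column-purified, was amplified from 100 ng and hybridised to 1 array per treatment, per the labels' protocols. The deposited table holds linear intensity values, 1 per probe set. MAS5 and version 1 of Affymetrix Expression Console were used, per the submitters' processing notes, which give no role for either. Leaving out the extreme 2% of values at each end, the mean was 150.001 on both arrays, so a change common to most genes would be scaled away. For arrays, their number limits the precision. The aligner and build of the probe design are not given in the sources used here.

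The arrays hold 45101 probe sets, including 64 controls. The platform annotation gave 1 gene for 34945, more than 1 for 932 and no gene for 9160. Gene identifiers of 34741 were found in the RefSeq gene table (GRCm38.p6) and 0 symbols differed. Signals were floored at the 25th percentile of both arrays (7.17), log2 was taken, and a gene was read from the probe set with the highest mean. Genes at or above the median of mean signal (30.8) counted as measured, 11364 of 18193, and a difference of 2-fold or more was counted. Every member was to be named, with up to 4 measured genes of the largest absolute ratio in each comparison list. The members and lists were chosen with earlier results of these data known. The steps were tested on simulated arrays. Promoter windows came from the RefSeq table. Alternatives were median, quantile and lowess (fraction 0.3) adjustment, no floor or a higher one, no filter or the 75th percentile, 50 added as a pseudocount, a gene's median probe set value, leaving out s and x probe sets, and 1.5-fold or 3-fold. Work was done in Python 3.11.15 with pandas 2.3.3, numpy 2.4.6, matplotlib 3.10.9 and, for lowess, statsmodels 0.14.6.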

Additional observations from a re-analysis of the deposited data

How the results depend on the processing

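The number of epithelial genes at least 2-fold higher was 8 in the main setting and between 7 and 9 with median centring, quantile normalization, lowess centring, no floor, the higher floor, the median over probe sets and without s and x probe sets. It was 11 of 37 over all members whatever their signal, a count added after the data were seen. With 50 added to every signal it was 3 (Cldn10, Epcam and Plet1), and with the filter at the 75th percentile it was 2 of 11 and the number lower was 0. At 1.5-fold 18 genes were higher (12.3% of all measured genes) and 2 lower (4.58%), and at 3-fold 3 were higher (0.528%). Without the filter 2 were lower, Cldn1 and Cldn4. The median ratio ran from 0.46 with the pseudocount to 0.79. Over 29 measured genes and up to 10 settings each, only the 268 cases in which the gene stayed measured were counted. A call was lost in 5 of these (Cldn7, Elf3, Ehf, Spint1 and Wfdc2, each with the pseudocount). It was gained in 1 (Cldn3, by the median over probe sets) and reversed in 0. With the filter at the 75th percentile Cldn1, Cldn10, Cldn7, Elf3, Ehf, Spint1 and Wfdc2 were not measured and had no call. Cldn10 was also missing without s and x probe sets. Krt8 and Tjp1, both close to 0, changed sign under some settings. Across all genes counted in a setting, the share at least 2-fold higher ran from 2.30% to 3.56% where the epithelial number was 7 to 9. That share was 0.475% with the pseudocount, 0.822% with the filter at the 75th percentile and 5.63% without the filter. At least 2-fold lower were 101 of 7058 genes with the filter at the 75th percentile and 460 of 18193 without the filter. With 1 array per treatment no replicate could be left out. No paired analysis was possible because each group has 1 sample. Low signal limits the 8 genes under the filter and those close to it on the vehicle array, such as Cldn7, Elf3, Ehf, Spint1 and Wfdc2.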

Other observations

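The second epithelial list held 16 genes under the filter, of which 10 had a ratio above 0, 3 below and 3 at 0 because both signals were under the floor. At 2-fold or more 4 were higher and 0 lower, and the median ratio was 0.06. The 4 higher genes and the 3 below 0 are named here after their values were seen. Pax8, a transcription factor of oviduct secretory cells, read 8.26 with vehicle and 41.3 with ulipristal, 5.00-fold higher. Rab25, an epithelial GTPase of apical recycling, read 9.20 and 41.3, 4.49-fold higher, and Evpl, envoplakin, a desmosomal plaque protein, read 1.98 and 39.8, at least 5.54-fold higher. Cldn23, a claudin, read 8.34 and 26.1. Those below 0 were Krt23, with a ratio of -0.65, Grhl1, a Grainyhead-like factor, with -0.46, and Krt14, a keratin of stratified epithelia, with -0.40. Over all 18193 genes with a probe set, measured ones included, 1025 (5.63%) were at least 2-fold higher, 460 were lower and the median was 0.02. Of the 11364 measured ones among them, 380 were higher and 177 lower. The shares over only the genes under the filter were not computed, so the counts of the 16 dim genes have no like background beside them.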
